A study of Mus musculus with 18 samples.

Results

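MiR-126a was followed here through both of its mature products, mmu-miR-126a-3p and mmu-miR-126a-5p, in small RNA from mouse lung, eye and testicle. These 2 names were taken from the 1431 mature miRNAs in the count tables by name, as both arms of the Mir126a hairpin. All groups came from normal male C57BL/6 mice aged 8 to 12 weeks, and the labels give no treatment and no engineered allele. There were 6 groups of 3 libraries, namely left lung, right lung, left eye, right eye, left testicle and right testicle, each from whole-organ RNA. Nothing in the labels tells whether a left and a right library share a mouse, or that replicates are separate animals. P-values therefore measure the spread between libraries, and n = 6 per organ overstates the replication if sides share mice.

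MiR-126 is the miRNA best known from the endothelial cells that line blood vessels. A miRNA gene is transcribed as a longer RNA that folds into a hairpin, and each arm of the hairpin can give a mature miRNA, one usually far more abundant than the other. The 3p arm of miR-126 is known to repress Spred1 and Pik3r2, inhibitors of signalling from vascular growth factor receptors, and the 5p arm is known in mouse endothelium to repress Dlk1, an inhibitor of Notch signalling. The lung is among the most densely vascularised organs, and its capillary bed makes up a large part of its cells. MiR-126 is also found in platelets and in blood progenitors, so it is not exclusive to the endothelium.

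The Mir126a hairpin lies on the plus strand at chr2:26591357-26591429 (GRCm38.p6, RefSeq), inside Egfl7, which encodes a protein secreted by endothelial cells. Of 19 Egfl7 transcripts in the GENCODE annotation, 9 span the hairpin, which is intronic in 8 of them and exonic in 1 transcript annotated as a retained intron. The protein-coding gene Gm20532 spans it on the same strand, and Mir126b lies opposite on the minus strand. The sequences below show the arm that carried most of the counts, its seed (bases 2 to 8, the part that pairs with targets) and its place in the hairpin. They come from the RefSeq miRNA table, in which 1 of the 2 members, miR-126a-3p, was matched. Capitals mark the seed in the first sequence and the mature 3p arm, bases 46 to 67 of the hairpin, in the second.
miR-126a-3p: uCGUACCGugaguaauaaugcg
Mir126a hairpin: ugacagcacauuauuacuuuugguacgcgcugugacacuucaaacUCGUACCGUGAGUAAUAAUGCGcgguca
None of the other mature mouse miRNAs in that table, 1679 in all, shared bases 2 to 8 of miR-126a-3p, and none shared bases 2 to 7. That table holds 1209 of the 1431 miRNAs counted here, so seeds of the others were not searched.

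Products of the opposite strand could in principle be confused with miR-126a where reads are counted without strand, and whether strand was used is not given in the sources used here. MiR-126b-3p, at chr2:26591363-26591385 on the minus strand, lies opposite the 5′ side of the hairpin. MiR-126b-5p, at chr2:26591399-26591420, overlaps mature miR-126a-3p over 19 bases, shown in capitals in the second sequence, while capitals in the first mark its seed.
miR-126b-3p: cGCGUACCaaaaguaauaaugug
miR-126b-5p: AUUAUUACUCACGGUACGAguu
MiR-126b-3p had 50 counts over the 6 lungs, 14 over the 6 eyes and 5 over the 6 testicles, with at most 18 in any library. MiR-126b-5p had 7 counts over the 6 lungs and 0 in every eye and testicle library. Beside at least 454 counts of either miR-126a arm in every library, the opposite strand thus carried few counts under its own names.

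Total counts were 2538402 to 2790471 in lung libraries, 2451484 to 2680204 in eye libraries and 952608 to 1893132 in testicle libraries. The authors deposited raw counts for each mature miRNA, and a level below is the share of all miRNA counts in a library unless TMM-scaled CPM (counts scaled to a fixed library total) are named. TMM, the trimmed mean of M values, rescales libraries so that most miRNAs match between them. Only mature miRNAs were counted, so Egfl7 and the protein markers of endothelium were not measured. Lung libraries differed in traces of miRNAs typical of the other organs. The neural miR-124-3p was highest in left lung 2, at 168 CPM of the library total, and in right lung 1, at 88.6 (7.31 to 45.9 in the other lungs), and the gonadal miR-202-5p in right lung 3, at 109.7 CPM, and in left lung 1, at 89.0 (8.86 to 46.5 in the others). Results were therefore also computed without each of these pairs of lungs.

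MiR-126a-3p was the most abundant miRNA of the lung. It held 6.22%, 4.98% and 5.001% of counts in the left lungs and 5.98%, 5.53% and 5.12% in the right lungs. In the eye it held 2.88%, 2.33% and 2.35% on the left and 2.50%, 2.60% and 2.77% on the right. In the testicle it held 2.25%, 2.49% and 2.52% on the left and 2.00%, 2.52% and 2.28% on the right. Every lung lay above every eye and every testicle, while the eye and testicle ranges overlapped. It ranked first of all miRNAs in 6 of 6 lungs, 13 or 14 in the eyes and 10 to 18 in the testicles. In these whole-organ libraries, fewer cells of a type and less RNA per cell cannot be told apart.

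By mean share, the neighbours of miR-126a-3p in the lung began with miR-26a-5p in second place (5.03% ± 0.455 against 5.47% ± 0.529 for miR-126a-3p, SD, n = 6 each), and miR-26a-5p was below miR-126a-3p in all 6 lungs. In the eye, let-7c-5p stood just above it (2.88% ± 0.255 against 2.57% ± 0.223) and let-7a-5p just below (2.02% ± 0.251). Let-7c-5p was below miR-126a-3p in 1 of 6 eyes, and let-7a-5p in 6 of 6. In the testicle, let-7a-5p (2.53% ± 0.568) and miR-465a-3p (2.19% ± 0.405) bracketed miR-126a-3p (2.34% ± 0.207), and they were below it in 3 and 4 of 6 libraries, so those neighbours did not differ beyond their spread.

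MiR-126a-5p was far less abundant than 3p in all 3 organs, and it separated the lung from the other organs more widely. It had 17836, 17368 and 22096 counts in the left lungs and 9857, 13300 and 20465 in the right lungs. The left eyes had 1678, 2636 and 2044 counts and the right eyes 2151, 1369 and 1132. The left testicles had 519, 1686 and 454 counts and the right testicles 763, 1184 and 686. As shares of the library, these were 0.380% to 0.792% in lungs, 0.0462% to 0.105% in eyes and 0.0375% to 0.107% in testicles. The lowest lung was several times the highest eye or testicle. By rank, the 5p arm stood between 38 and 44 in the lungs, 89 and 118 in the eyes and 104 and 137 in the testicles.

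**Figure D1:**
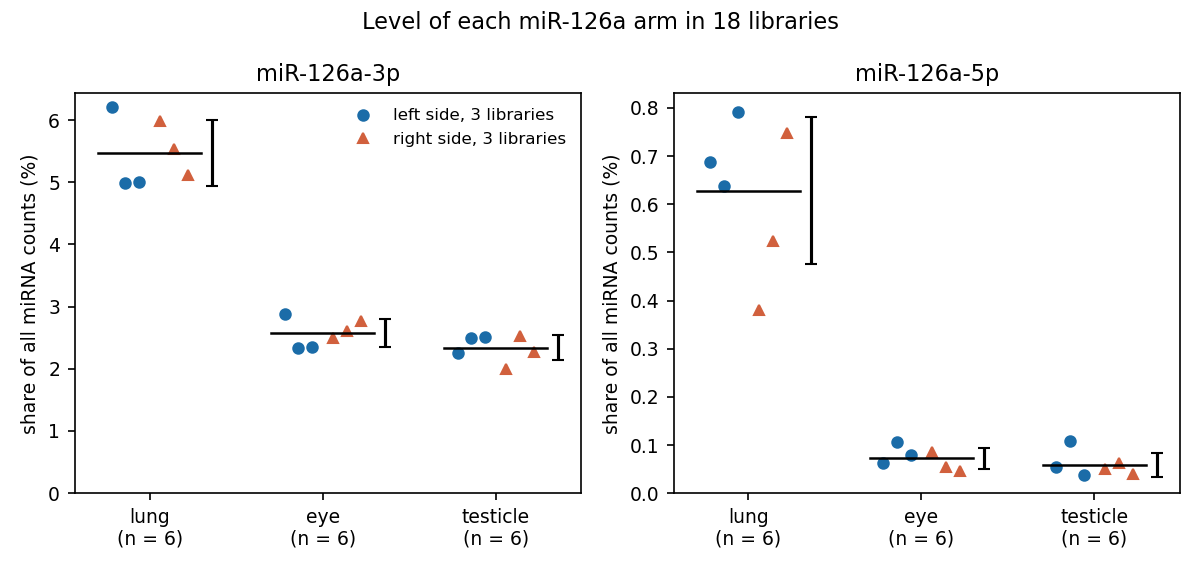
Share of all miRNA counts (%, y axis) held by miR-126a-3p (left panel) and miR-126a-5p (right panel) in lung, eye and testicle, one point per library, with circles for left and triangles for right sides. Horizontal lines are means of 6 libraries and bars beside them ± SD. All 6 lungs lie above all eyes and testicles in both panels, with miR-126a-3p at 4.98% or more in the lung and 2.88% or less elsewhere.

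Lung and eye were compared first. Fold changes below are log2 values of the organ named first over the one named second. MiR-126a-3p averaged 49062 ± 8625 TMM-scaled CPM in the lung and 25012 ± 3407 in eyes (SD, 6 libraries per organ), and the log2 fold change was 0.97 (SE 0.14, adjusted p 6.4e-06 by edgeR). MiR-126a-5p averaged 5523 ± 1089 CPM in the lung and 694 ± 200.05 in eyes, and the log2 fold change was 2.99 (SE 0.25, adjusted p 1.6e-08 by edgeR). Both arms were thus higher in the lung, by 1.96-fold for 3p and 7.95-fold for 5p. Of all 642 miRNAs tested in this comparison, 59.8% were called, 24.5% higher and 35.4% lower in the lung, so a call by itself was common. That split of 157 higher and 227 lower turned round to 262 and 196 with left testicle 1 as reference library, and to 271 and 198 without right eye 2. Ordered by the size of the fold change, 5p was 175th and 3p 380th of the 642. Without right eye 2, edgeR's reference library for the scaling changed from right eye 3 to left testicle 3, and the log2 fold changes were 1.69 for 3p and 3.70 for 5p.

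Lung and testicle gave much the same picture. MiR-126a-3p averaged 49062 ± 8625 CPM in lungs and 27301.5 ± 3015 in testicles, and the log2 fold change was 0.85 (SE 0.14, adjusted p 2.6e-05 by edgeR). MiR-126a-5p averaged 5523 ± 1089 CPM in lungs and 668 ± 219 in testicles, and the log2 fold change was 3.04 (SE 0.25, adjusted p 1.2e-08 by edgeR). Again 3p was higher by 1.80-fold and 5p by 8.23-fold. In this comparison 76.5% of the 642 miRNAs were called, 27.4% higher and 49.1% lower in the lung, and their median log2 fold change was -0.90. The split of 176 higher and 315 lower was 233 and 267 with left lung 1 as reference library. The lung libraries are shared with the previous comparison, so the 2 sets of values are not independent. Without right eye 2, with its change of reference library, the log2 fold changes were 1.49 for 3p and 3.68 for 5p.

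Neither arm was called between eye and testicle. MiR-126a-3p averaged 25012 ± 3407 CPM in eyes and 27301.5 ± 3015 in testicles, and the log2 fold change was -0.13 (SE 0.13, adjusted p 0.39 by edgeR). MiR-126a-5p averaged 694 ± 200.05 CPM in eyes and 668 ± 219 in testicles, and the log2 fold change was 0.049 (SE 0.23, adjusted p 0.86 by edgeR). In this comparison 79.3% of the 642 tested miRNAs were called, 40.2% higher and 39.1% lower in the eye. The sign of both depended on the scaling. That of 3p turned with library totals alone (0.14), and that of 5p with left testicle 1 as reference library (-0.13). Under TMM with left lung 1 as reference library the 5p arm was called higher in the eye (0.57, edgeR adjusted p 0.019). With only the eye and testicle libraries in the fit, the 3p arm was called lower in the eye (-0.41, edgeR adjusted p 0.0089).

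The ratio of the 2 arms within a library needs no scaling between libraries, since both counts come from the same pool. In the left lungs there were 9.05, 7.81 and 6.32 counts of 3p for each count of 5p, and in the right lungs 15.7, 10.6 and 6.84. In the left eyes there were 46.1, 22.1 and 30.1, and in the right eyes 29.2, 47.5 and 60.1. In the left testicles there were 41.3, 23.2 and 67.0, and in the right testicles 40.1, 40.3 and 56.2. The 3p arm dominated in 18 of 18 libraries, but by much less in the lung, where the highest ratio lay below the lowest eye and the lowest testicle. Stated as a share of both arms, 5p made up 5.97% to 13.7% in lungs, 1.64% to 4.32% in eyes and 1.47% to 4.14% in testicles. Counting error was small beside this: the 95% Wilson interval of the ratio was widest in left testicle 3, at 61.1 to 73.5, and narrowest in left lung 3, at 6.23 to 6.41. These intervals treat reads as independent and leave out the spread between libraries. They are too narrow where several reads come from 1 molecule.

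**Figure D2:**
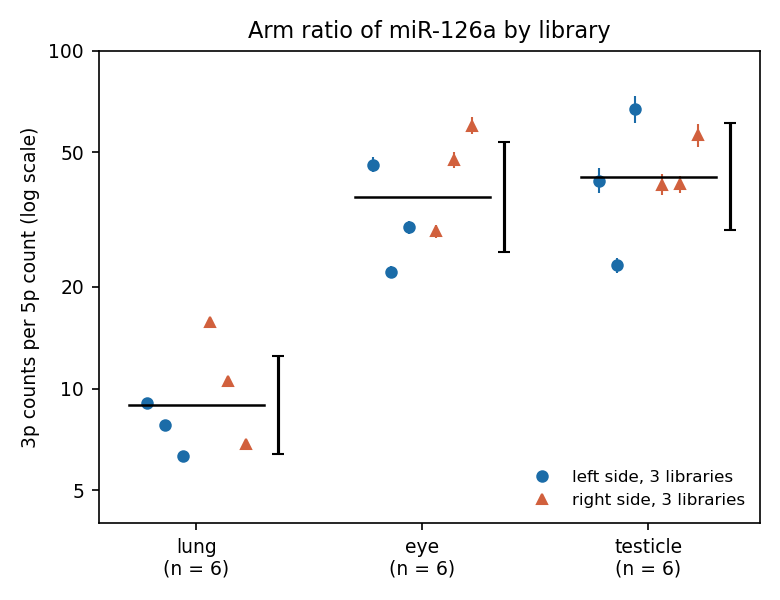
Counts of miR-126a-3p per count of miR-126a-5p (log y axis) in each lung, eye and testicle library, with circles for left and triangles for right sides and thin bars for the 95% Wilson counting interval. Horizontal lines are geometric means of 6 libraries and the black bars ± 1 SD on the log2 scale. The lungs sit between 6.32 and 15.7, below all eyes (22.1 to 60.1) and all testicles (23.2 to 67.0).

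The geometric mean ratio was 8.93 for lungs, 37.0 for eyes and 42.4 for testicles. On the log2 scale, with 0.5 counts added to each arm, the ratio averaged 3.16 ± 0.48 in lungs and 5.21 ± 0.54 in eyes (SD, 6 libraries per organ), a difference of -2.05 (SE 0.32; 95% interval -2.74 to -1.36; limma adjusted p 5.8e-04 over 191 arm pairs). Against the testicle, at 5.41 ± 0.52, the difference was -2.25 (SE 0.32; 95% interval -2.93 to -1.56; limma adjusted p 1.3e-04). The exact two-sided permutation test over 924 splits gave p = 0.0022 in both cases, which is the smallest it can give with 6 libraries against 6. Between eye and testicle the difference was -0.20 (95% interval -0.88 to 0.49; limma adjusted p 0.66; exact permutation p = 0.54). The 3p to 5p ratio of miR-126a was thus 4.14 times lower in the lung than in the eye and 4.74 times lower than in the testicle.

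Such a shift can be set beside those of the 191 hairpins whose arms both passed the filter on low counts. A pair can pass it through 1 organ alone. Some pairs thus had few or no counts in the organs compared, where the 0.5 added counts set their ratio. With only the 32 pairs of at least 50 mean counts per arm in each organ, 6 ratios were called between lung and eye. Between lung and testicle 18 of these were called. The ranks and shares below are over all 191. Some of these pairs share an arm whose counts were identical under more than 1 name, so they are not all separate measurements. In lung against eye, 16.8% of these pairs were called, 7.85% with a higher ratio in the lung and 8.9% with a lower one, as in miR-126a. By p-value miR-126a ranked 4 of 191, and by size 13, beside a median absolute difference of 0.51 on the log2 scale. In lung against testicle, 35.1% of pairs were called, 17.8% higher and 17.3% lower in the lung. There miR-126a ranked 6 by p-value and 24 by size, beside a median absolute difference of 0.80. Pairs whose lungs and eyes did not overlap at all numbered 18, or 9.42%. For lung and testicle they numbered 27, or 14.1%. In eye against testicle, where miR-126a was not called, 28.8% of pairs were, 15.7% higher and 13.1% lower in the eye. Over the 3 organ means, 3p was the dominant arm throughout in 72 pairs, among them miR-126a, and 5p throughout in 98. The other 21 include pairs without counts of either arm in lung and eye, so not all of them changed their dominant arm.

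Among hairpins with a very abundant arm, the less abundant arm showed the larger fold change in most pairs of both lung comparisons, as it did for miR-126a. This comparison was chosen after the values were seen. Where the more abundant arm averaged at least 10000 CPM, both arms moved in the same direction in 18 of 18 pairs between lung and eye, and the less abundant arm had the larger absolute log2 fold change in 16 of them. Between lung and testicle this was so for 13 of 16 pairs, and between eye and testicle for 11 of 19. Over all pairs whose fold changes had the same sign it was 85 of 162, 86 of 173 and 80 of 171. Between lung and eye the 162 include pairs without counts of either arm, with a fold change of 0 in both. MiR-126a is one of the abundant pairs, so it is in these counts. All of these counts compare point estimates of the fold changes, however little the arms differed. Most of the abundant pairs had no called ratio between lung and eye by limma. The part that the abundance of an arm has in the ratio of miR-126a was not tested.

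**Figure D3:**
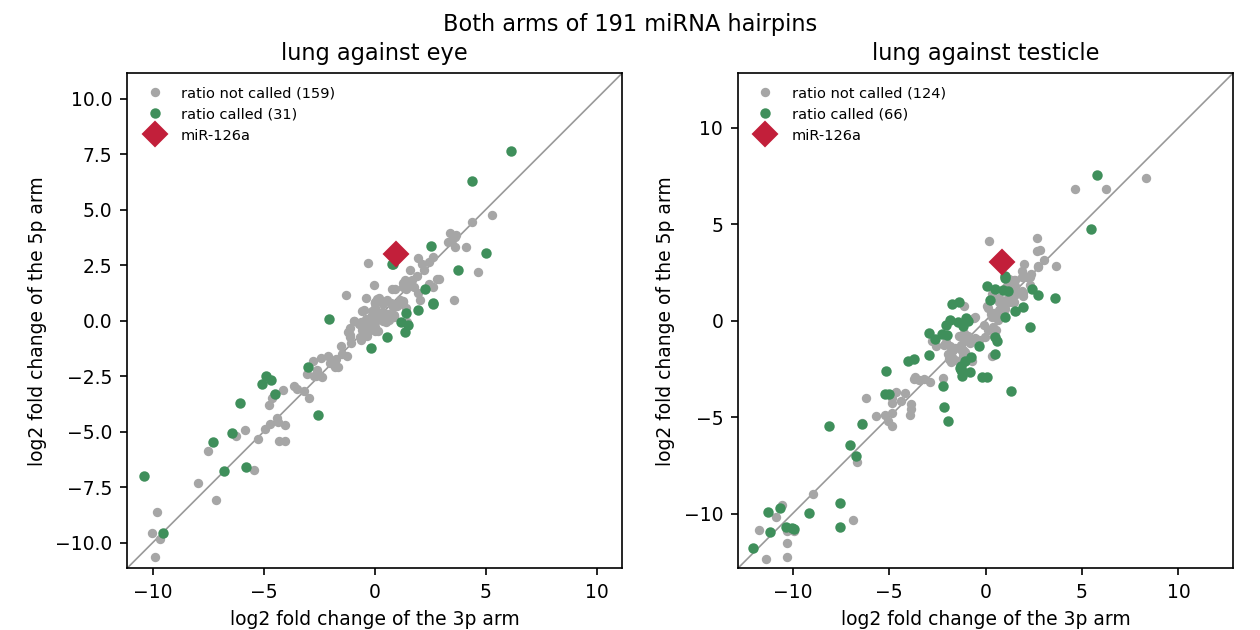
Log2 fold change of the 3p arm (x axis) against that of the 5p arm (y axis) for 191 hairpins, lung against eye on the left and lung against testicle on the right, one point per hairpin. Green points are pairs whose ratio was called by limma, grey points those not called, and the diagonal marks equal change. MiR-126a (red diamond) lies above the diagonal in both panels, with 0.97 and 0.85 for 3p and 2.99 and 3.04 for 5p.

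As shares of counts, the 5p arm varied more than the 3p arm within each organ. The share of counts held by 3p varied 1.25-fold between the lowest and highest lung, 1.24-fold between eyes and 1.26-fold between testicles. For 5p these ranges were 2.09-fold, 2.28-fold and 2.86-fold. The SD of log2 share was 0.14 for 3p and 0.39 for 5p in the lung, 0.12 and 0.44 in the eye, and 0.13 and 0.55 in the testicle. On the TMM scale the SDs of 3p and 5p were closer in the lung, at 0.25 and 0.31. They were 0.20 and 0.40 in the eye and 0.16 and 0.45 in the testicle. Right lung 1 had the most 3p for its 5p among the lungs, right eye 3 among the eyes and left testicle 3 among the testicles. The lowest ratios were in left lung 3, left eye 2 and left testicle 2.

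Set against other abundant miRNAs of the same organ on the TMM scale, the SD of 5p was above the median in the eye and testicle and below it in the lung. Its SD of log2 CPM was 0.40 in the eye, where the median over 212 miRNAs of at least 100 CPM was 0.22 and 39 had a larger SD. In the testicle it was 0.45 beside a median of 0.31 over 240 miRNAs, of which 57 had a larger SD. In the lung it was 0.31 beside a median of 0.42 over 176 miRNAs. The SD of the log2 ratio of 3p to 5p was 0.48 in lungs, beside a median of 0.82 over the 191 arm pairs, of which 152 had a larger SD. In eyes it was 0.54 beside 0.49, with 86 larger, and in testicles 0.52 beside 0.59, with 109 larger. Among these 191 pairs, the ratio of miR-126a was thus near the middle in eye and testicle and less variable than most in lung. Unlike the miRNAs above, the pairs had no floor of 100 CPM, and some had few or no counts in an organ. These places therefore do not compare pairs of like abundance.

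Neither arm was called between the left and right sides of any organ. By edgeR, the log2 fold change of miR-126a-3p, left over right, was -0.22 for lungs (SE 0.27, adjusted p 0.91), -0.19 for eyes (SE 0.17, adjusted p 0.98) and 0.0060 for testicles (SE 0.12, adjusted p 0.99). That of miR-126a-5p was 0.23 for lungs (SE 0.26, adjusted p 0.91), 0.27 for eyes (SE 0.27, adjusted p 0.98) and 0.25 for testicles (SE 0.34, adjusted p 0.84), again by edgeR. With edgeR 0% of miRNAs were called in each organ, of 430, 487 and 464 tested. At an unadjusted p under 0.05 there were 1, 18 and 36, and DESeq2 called 0, 1 and 1.

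The log2 ratio of 3p to 5p was lower on the left in all 3 organs, but within the spread. The difference of left and right was -0.45 in the lung (95% interval -1.49 to 0.59, exact permutation p = 0.30), -0.48 in the eye (-1.40 to 0.44, exact permutation p = 0.30) and -0.17 in the testicle (-1.21 to 0.88, exact permutation p = 0.90). A test of 3 libraries against 3 cannot give an exact p below 0.10. By limma 0% of arm pairs were called in each organ. Whether the side difference of the ratio varied between organs was tested jointly, and it did not pass (limma adjusted p 0.99), as for the level of either arm (edgeR adjusted p 1 for both).

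The miRNAs whose profile over the 18 libraries was most like each arm were not the same. Likeness was the root-mean-square difference of log2(CPM + 1) values, each miRNA centred on its own mean, so that 0 is an identical profile. For 3p the 5 nearest were let-7d-5p (0.23), miR-151-5p (0.24), let-7i-5p (0.29), let-7b-5p (0.29) and miR-30d-3p (0.30), beside a median of 1.49 over 641 miRNAs. Let-7d-5p, a member of the broadly expressed let-7 family, averaged 16677 ± 2932 CPM in lungs, 9434 ± 1199.8 in eyes and 11009 ± 2979.8 in testicles. For 5p the nearest were miR-24-2-5p (0.42), miR-3074-2-3p (0.43), miR-150-5p (0.51), miR-146b-5p (0.53) and miR-200b-3p (0.57), beside a median of 2.24. MiR-24-2-5p and miR-3074-2-3p come from opposite strands of 1 locus and may share reads. MiR-150-5p, abundant in lymphocytes, averaged 8999 ± 1754 CPM in lungs, 1227 ± 215 in eyes and 723 ± 168 in testicles. The 2 arms of miR-126a were 1.12 apart, which put 5p at place 232 in the list for 3p, and 3p at place 74 in the list for 5p.

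Other miRNAs of the vessel wall, of blood and of epithelium give the surroundings in which miR-126a was measured. The endothelial-associated list held 21 miRNAs reported to act in endothelium, most of which are also made by other cells. Between lung and eye, 10 were higher in the lung, 2 were lower and 9 were not called, with a median log2 fold change of 0.68 beside -0.0048 for all miRNAs tested. Of all of them 59.8% were called, 24.5% higher and 35.4% lower, so the 12 called of 21 are about the overall share. With TMM referred to left testicle 1, without right eye 2, and without right lung 1 and left lung 2, the counts were 17 higher and 2 lower. Among its most abundant members, miR-23a-3p, which shares a cluster with miR-27a and miR-24-2, averaged 21030.4 ± 1557 CPM in the lung and 5912 ± 675 in the eye (log2 fold change 1.83, edgeR adjusted p 1.1e-07). MiR-24-3p averaged 28931 ± 10238 CPM in the lung and 8723 ± 2301 in the eye (1.73, edgeR adjusted p 1.4e-05). In this list 10 members had a larger fold change than miR-126a-3p and 3 a larger one than miR-126a-5p.

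Between lung and testicle, 12 of the 21 were higher in the lung, 6 were lower and 3 were not called, with a median log2 fold change of 1.21 beside -0.90 for all, of which 76.5% were called, 27.4% higher and 49.1% lower. MiR-23b-3p averaged 21194 ± 3158 CPM in lungs and 4323 ± 828 in testicles (2.29, edgeR adjusted p 1.0e-09), whereas miR-322-5p, from the X-linked cluster with miR-503, had 14282 ± 1437 CPM in lungs and 14218 ± 2853 in testicles (0.0098, edgeR adjusted p 0.97). The summed share of the list was 15.7% to 17.6% of counts in lungs, 6.08% to 6.98% in eyes and 4.26% to 6.13% in testicles. Of the 14 arm pairs in this list, 4 had a called ratio between lung and eye, 1 higher and 3 lower in the lung, where 16.8% of all pairs were called. Between lung and testicle 4 were called, 3 higher and 1 lower, where 35.1% of all pairs were.

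Mural miRNAs, made by the smooth muscle and pericytes around vessels, were higher in the lung than in the eye for 3 of 3 tested members. Of these, miR-145a-5p and miR-145a-3p are the 2 arms of 1 hairpin, so the members are not independent. Of all miRNAs tested, 24.5% were called higher there. MiR-143-3p averaged 36178 ± 4801 CPM in the lung and 18863 ± 2626 in the eye (log2 fold change 0.94, edgeR adjusted p 2.2e-06), close in size to miR-126a-3p. Against the testicle 1 of 3 was higher in the lung, beside 27.4% of all miRNAs tested. MiR-143-3p averaged 36178 ± 4801 CPM in lungs and 35153 ± 3055 in testicles (0.042, edgeR adjusted p 0.77). Only 2 of the 18 refits that left out 1 library kept that count of 1, and the others gave up to 4. There were also 3 higher when library totals alone were used and 0 with the stricter count filter.

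Blood cells can also carry miR-126. Of 7 leukocyte miRNAs, 6 were higher in the lung than in the eye and 1 was not called, with a median log2 fold change of 3.61. Against the testicle 6 were again higher, with a median of 1.84, and miR-342-3p fell to 1058 ± 203 CPM in lungs, against 2849 ± 125 in testicles (-1.43, edgeR adjusted p 2.6e-07). MiR-146a-5p, induced in inflammatory signalling, averaged 12053 ± 4232 CPM in lungs, 973 ± 265 in eyes and 969 ± 239 in testicles. Their summed share was 2.46% to 3.09% in lungs, 0.327% to 0.423% in eyes and 0.342% to 0.554% in testicles. Of the 4 erythroid miRNAs, 0 were called higher in the lung by edgeR. Between lung and eye 1, miR-486a-5p, was called lower, and between lung and testicle 0 were called. Without a filter on low counts 2 were called higher and 1 lower against the eye, and 3 lower against the testicle. Their summed share was 0.180% to 0.696% in lungs, 0.136% to 0.434% in eyes and 0.0230% to 0.818% in testicles. Epithelial miRNAs of the 200 family were higher in the lung for 5 of 5 against both organs, with medians of 2.82 and 3.65. Thus 6 of 7 leukocyte and 5 of 5 epithelial miRNAs were called higher in the lung in each comparison, as both arms of miR-126a were. The leukocyte list holds both arms of 1 hairpin and the epithelial members are 1 family, so these are not counts of independent miRNAs. Of all 642 miRNAs tested, 24.5% were called higher and 35.4% lower in the lung than in the eye. Against the testicle these shares were 27.4% and 49.1%. The lists were chosen with earlier results of these data known. The part of the cell types that these miRNAs mark in the level of miR-126a was not tested.

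**Figure D4:**
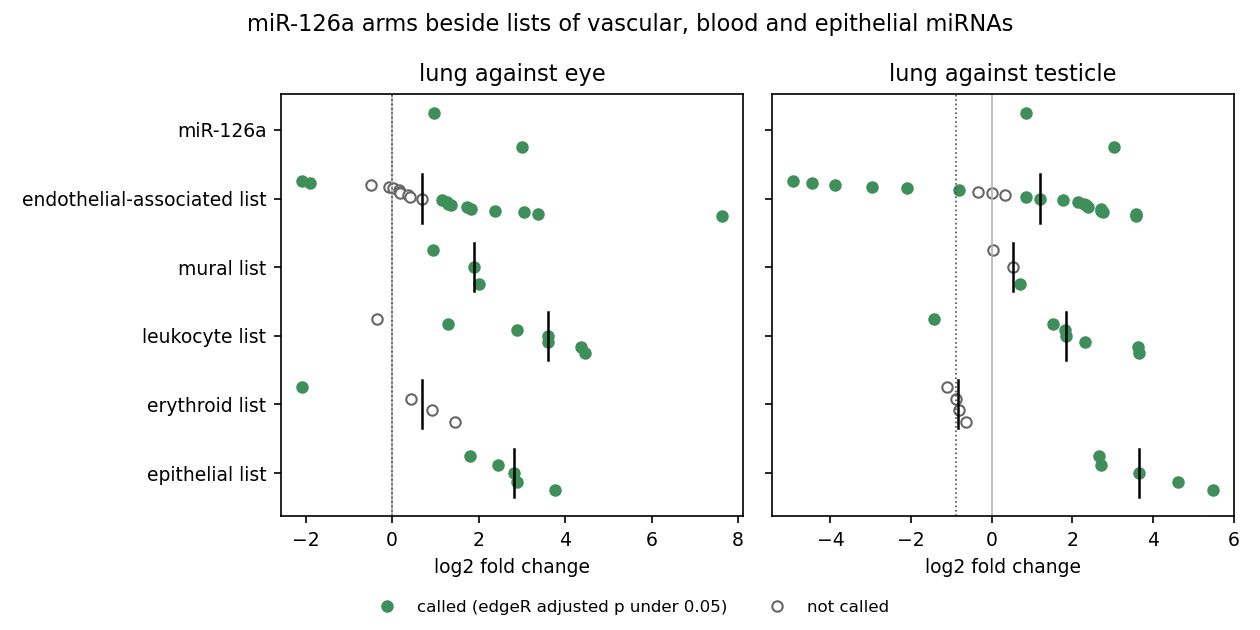
Log2 fold change (x axis) of the 2 miR-126a arms and of the members of 5 lists of miRNAs (rows), lung against eye on the left and lung against testicle on the right. Filled points were called by edgeR at an adjusted p under 0.05, open points were not, thick bars are list medians and the dotted line is the median of all 642 miRNAs. MiR-126a-3p (0.97 and 0.85) lies below the medians of the leukocyte list (3.61 and 1.84) and the epithelial list (2.82 and 3.65), and miR-126a-5p (2.99 and 3.04) among the members of both.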

How the data were processed

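Per the labels, total RNA of each organ was extracted on spin columns and made into BGI-500 libraries. GRCm38.p6 is the build in the submitters' processing notes. How reads were aligned and counted, and how strand and multiple matches were handled, is not given in the sources used. The authors deposited raw whole-number counts for 1431 mature miRNAs, with a table for each library. In 10 sets, 22 names in all, the counts were identical in every library, and all were kept.

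The members and lists were chosen with earlier results of these data known. Tests on levels used edgeR 4.0.16 (R 4.3.3): TMM scaling, the filterByExpr filter by group (642 miRNAs kept, 789 left out), the quasi-likelihood test over all 18 libraries, or 6 for left against right, and Benjamini-Hochberg adjustment at 0.05. Organ contrasts took the mean of both sides. The log2 ratio of 3p to 5p, with 0.5 counts added to each, was fitted with limma 3.58.1 over the 191 of 517 arm pairs whose arms both passed the filter. Sequences and positions came from RefSeq tables of GRCm38.p6, the host gene from GENCODE M21. Procedures were tested on simulated counts. Alternatives included DESeq2 1.42.0, other scalings and filters, a replicate block and left-out libraries. The text names both arms, the opposite-strand products, neighbours by share, the 5 miRNAs most like each arm, and members of each list from among its 4 most abundant ones. MiR-342-3p is one of these.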

Additional observations from a re-analysis of the deposited data

Results flagged for a closer look

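In the 6 libraries of an organ, a library was singled out where its gap to the next one passed Dixon's 95% critical value. Of 24 sets of 6 checked, 4 had such a library, and chance gives about 1 in 20. MiR-126a-5p held 0.107% of counts in left testicle 2, against 0.0375% to 0.0625% in the other testicles, and the same library had the lowest ratio of 3p to 5p among the testicles. The summed mural miRNAs held 4.59% of counts in right lung 1, against 4.13% to 4.21% in the other lungs. The summed erythroid miRNAs held 0.696% in right lung 3, against 0.180% to 0.348% in the other lungs. The summed epithelial miRNAs held 0.942% in left eye 1, against 0.492% to 0.594% in the other eyes.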

How the results depend on the processing

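Both arms of miR-126a stayed higher in the lung than in the eye and the testicle, and called, under every alternative run. With the filter of 50 counts in 6 libraries, the log2 fold changes against the testicle fell to 0.55 for 3p (edgeR adjusted p 0.0026) and 2.75 for 5p. Against the eye they were 0.96 and 2.98. Leaving out each of the 18 libraries gave log2 fold changes of 0.95 to 1.69 (3p) and 2.92 to 3.70 (5p) against the eye, and 0.77 to 1.49 and 2.92 to 3.68 against the testicle. The log2 ratio of 3p to 5p was -2.20 to -1.90 and -2.44 to -2.06 in these refits. It lost its call once, between lung and eye with right libraries alone (-2.06, limma adjusted p 0.061; range over the 18 refits 3.2e-04 to 0.0024), where 3 libraries an organ remained. Without right lung 1 and left lung 2, the log2 fold changes against the eye were 1.56 and 3.74, and without left lung 1 and right lung 3 they were 1.46 and 3.38. Both of these settings were chosen after seeing the data.

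Between eye and testicle the sign of 3p turned with library totals alone (0.14) and with left lung 1 as reference (0.38), and 3p was called with the filter of 50 counts (-0.41) and with 12 libraries (-0.41). The sign of 5p turned with left testicle 1 as reference (-0.13), no filter (-0.024), the filter of 50 counts (-0.23), 12 libraries (-0.23), 1 name per identical set (-0.0091), without either pair of lungs (-0.059 and -0.054) and with left or right libraries alone (-0.091 and -0.10), and 5p was called with left lung 1 as reference (0.57). Leaving out 1 library gave -0.36 to -0.066 for 3p, called in 6 of 18 refits, and -0.23 to 0.29 for 5p. The causes were not tested.

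The median log2 fold change of all miRNAs between lung and eye was -0.0048, and 0.51 with left testicle 1 as reference, where 262 were called higher and 196 lower against 157 and 227. Without right eye 2 the split was 271 and 198, without right lung 1 and left lung 2 it was 272 and 204, and without left lung 1 and right lung 3 it was 240 and 206. Between lung and testicle the split was 176 and 315, against 233 and 267 with left lung 1 as reference and 246 and 278 without right eye 2. The filter of 50 counts tested 404 miRNAs and called 251 (lung, eye), 322 (lung, testicle) and 322 (eye, testicle), against 384, 491 and 509. With 32 arm pairs of at least 50 counts, 6, 18 and 10 ratios were called, against 32, 67 and 55, and the fit on 12 libraries called 16 between lung and eye.

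Left against right, no filter called 1 miRNA in the lung and 6 in the eye, DESeq2 called 1 in the eye and 1 in the testicle, and the replicate block called 1 arm pair in the testicle. The sign of 3p in the testicle turned with no filter (-0.10) and DESeq2 (-0.048). Leaving out 1 library gave -0.38 to 0.022 for 3p in the lung, -0.11 to 0.047 for 3p and -0.18 to 0.47 for 5p in the testicle, -0.54 to 0.23 for the testicle ratio, and 0 to 1 calls of miRNAs or arm pairs in the eye and in the testicle.

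Of the lists, the endothelial-associated one had 19 members called between lung and eye with left testicle 1 as reference or without right lung 1 and left lung 2, and 12 to 19 with 1 library left out. Mural calls between lung and testicle were 2 (RLE scaling, no filter), 3 (library totals, either reference library, 12 libraries, without left lung 1 and right lung 3), 4 (without right lung 1 and left lung 2), 0 (filter of 50 counts), and 1 to 4 with 1 library left out, where 2 of 18 refits kept the count of 1. Erythroid calls between lung and eye were 2 (RLE scaling), 3 (left testicle 1 as reference, no filter, without right lung 1 and left lung 2), and 1 to 2 with 1 library left out. Between lung and testicle they were 3 (no filter), 1 (filter of 50 counts), and 0 to 1. Between eye and testicle they were 1 (left lung 1 as reference, 12 libraries), and 1 to 4.

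Groups share replicate numbers, and these were not taken to pair the libraries, since not every same-numbered pair correlated above 0.1 in its deviations from the group means. Of 45 such pairs 8 did (range -0.42 to 0.40), and 13 correlated best with their own number. Among the 9 left and right pairs of 1 organ 4 did, with 0.16, -0.023 and 0.40 in the lung, 0.24, 0.024 and 0.12 in the testicle, and -0.42 to -0.11 in the eye. Whether sides share mice remains unknown. With the replicate block the log2 fold changes of 3p and 5p were 0.97 and 3.02 against the eye and 0.83 and 3.09 against the testicle, and it changed no call of miR-126a. Counting error alone gave the ratio of left testicle 3, with 454 counts of 5p, a 95% interval of 61.1 to 73.5.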
